A study of Mus musculus with 4 samples.

Results

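Among cells sorted as CD4+ T cells from the livers of mice with diet-induced metabolic dysfunction-associated steatohepatitis (MASH), 735 of 28018 filtered cells (2.62%) carried so few ribosomal protein transcripts that these made up under 6% of their unique molecular identifiers (UMIs, which count captured RNA molecules once each). They are called low-ribosomal cells below. A cell was kept when it had more than 200 detected genes and under 5% of UMIs from mitochondrially encoded genes, and the ribosomal share was counted over the Rpl, Rps, Rplp and Rpsa symbols. In the library labelled WT, 323 of 10556 filtered cells (3.06%; exact binomial 95% interval 2.74 to 3.41%) were low-ribosomal, and in the library labelled dKO 412 of 17462 (2.36%; 2.14 to 2.60%) were. All intervals given here cover counting error only. The pattern of symbols matched 101 genes, of which 10 were *Rps6k* kinase genes that are not part of the ribosome, and these gave 4.02% (WT) and 5.08% (dKO) of the matched UMIs in low-ribosomal cells against 0.164% and 0.19% in all other cells.

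The cells came from a study of the nuclear receptors *Nr4a1* and *Nr4a2* in liver CD4+ T cells. The library labelled dKO was made from mice whose floxed *Nr4a1* and *Nr4a2* genes (*Nr4a1* fl/fl *Nr4a2* fl/fl Cd4-Cre) are deleted by a Cre recombinase under the *Cd4* promoter, which acts in the T cell lineage and leaves other cell types to their own genes. The library labelled WT was made from wild type mice, and whether these carried floxed alleles is not given in the sources used here. Both groups were male mice given, over 8 weeks, a diet without added choline (CD), with 0.1% methionine and 60 kcal% from fat. CD4+ T cells were taken from the livers by flow cytometry, those of 2 mice per genotype were pooled, and each pool gave 1 gene expression library and 1 T cell receptor library with a 5′ droplet kit.

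With 1 library per genotype no difference between genotypes could be tested, cells are not replicates, and p-values are not given. The deposited tables held 10602 and 17645 cells with 23494155 and 37966611 UMIs and at least 500 UMIs in each cell. Of the targeted genes, *Nr4a1* stood at 919 CPM (UMIs per 1000000 UMIs outside the ribosomal protein genes, used for all levels below) in the filtered cells of the library labelled WT and at 2046 CPM in those of the library labelled dKO, and *Nr4a2* stood at 232 and 377 CPM. Both levels were therefore higher under the knockout label, against what a deletion that lowers the transcript would give. The counts are of whole genes and do not show which exons remain. The paper reports, from these libraries, more cells expressing *Foxp3* and *Il10* within a cluster of regulatory T cells of dKO mice. It is therefore no independent check of the labels. Over all filtered cells *Foxp3* was at 55.3 (WT) and 208 CPM (dKO), and *Il10* at 9.91 and 97.9 CPM. These levels also depend on how many regulatory T cells each library held. In the cluster of other cells called Treg-like below, *Foxp3* was at 528 (479 to 581) and 569 CPM (552 to 586). *Il10* was there at 98.8 (78.3 to 123) and 265 CPM (253 to 277). In low-ribosomal cells *Nr4a1* was at 759 CPM (WT, 95% Poisson interval 682 to 842) and 652 CPM (dKO, 577 to 735), and the 2 intervals overlapped. In all other cells it was at 924 and 2065 CPM. *Nr4a2* was at 358 (306 to 416) and 403 CPM (344 to 469) in low-ribosomal cells against 229 and 377 CPM in all other cells, and the untargeted family member *Nr4a3* was at 885 and 595 CPM against 356 and 360 CPM. Of the low-ribosomal cells, 6 in each library had a barcode that also occurred in the other library, as did 238 (WT) and 237 (dKO) of all other cells.

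A droplet assay captures RNA from the whole cell, and most captured molecules of a lymphocyte are spliced mRNAs of the cytoplasm, in which ribosomal protein mRNAs are very abundant. A nucleus holds unspliced precursor RNA, whose length and intron content grow with the span of the gene, and RNAs that are retained there, such as *Malat1*, a long non-coding RNA of nuclear speckles. Droplets that contain a nucleus, or a cell that lost cytoplasm, are commonly recognised by few ribosomal protein mRNAs, much *Malat1* and many reads from long genes.

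The ribosomal share selected the cells and is described without a test, and every gene was measured in the same cells. The share had its mode at 1 to 2% (122 of 323 cells) in the low-ribosomal cells of the library labelled WT and at 0 to 1% (180 of 412) in those of the library labelled dKO, thinned out to 14 and 11 cells at 5 to 6%, and increased again above the threshold. The median was 1.79% (WT) and 1.11% (dKO) in low-ribosomal cells and 21.1% and 18.3% in all other cells. The 3 low-ribosomal cells nearest to the threshold had 5.71, 5.74 and 5.90% (WT) and 5.69, 5.70 and 5.80% (dKO). The 3 nearest cells on the other side had 6.07, 6.12 and 6.19% and 6.05, 6.16 and 6.20%. The threshold therefore lay in a sparse stretch between 2 modes in both libraries.

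**Figure D1:**
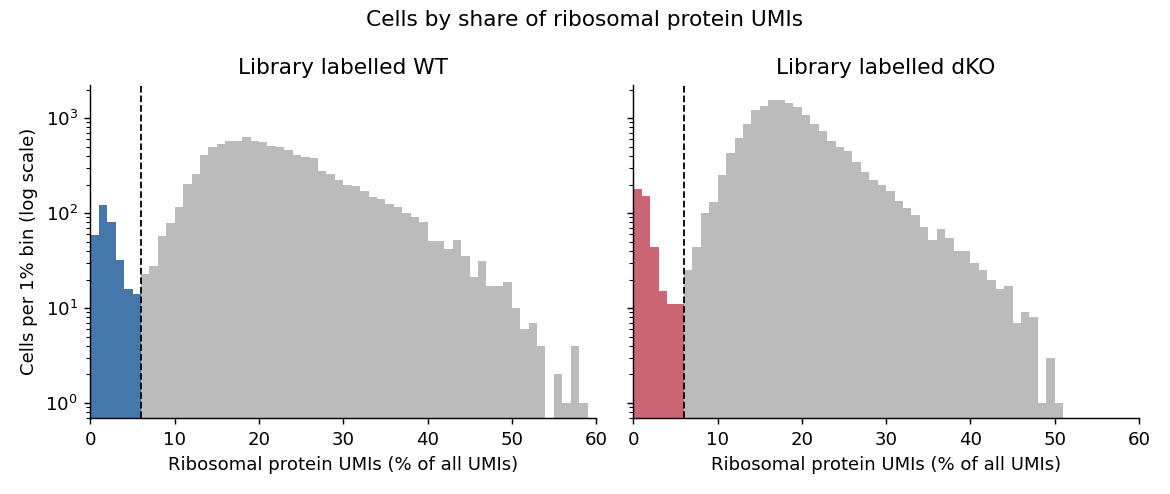
Number of filtered cells (vertical axis, log scale) by the share of their UMIs that came from ribosomal protein genes (horizontal axis, percent of all UMIs) in the libraries labelled WT and dKO, with the dashed line at the 6% threshold. In both libraries a small mode at 0 to 2% is separated from the main mode by a thinly filled stretch.

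Low-ribosomal cells held more *Malat1* and more RNA of long genes, but not less mitochondrial RNA. The median cell had 15175 CPM of *Malat1* (WT, quartiles 9581 and 21100) against 7397 CPM in all other cells (3745 and 11426), and 17447 CPM (dKO, 11399 and 24785) against 7659 CPM (4870 and 11050). The quartile ranges of low-ribosomal and other cells overlapped in the first library and did not in the second. Genes that span more than 100 kb of the genome gave a median 31.0% (WT, 26.6 to 35.6%) and 34.0% (dKO, 28.3 to 39.1%) of the non-ribosomal UMIs of a low-ribosomal cell against 11.2% (8.02 to 13.8%) and 10.3% (8.71 to 12%). These quartile ranges were far apart in both libraries. Mitochondrially encoded RNA made up a median 1.5% (WT) and 1.45% (dKO) of all UMIs against 1.19% and 1.20%, and 1.52% and 1.47% of non-ribosomal UMIs against 1.52% and 1.5%. Mitochondria lie in the cytoplasm, so the name "nucleus-like" fits these droplets by *Malat1* and gene span and not by mitochondrial RNA, and they are called by their rule here.

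Low-ribosomal cells were also shallower. They had a median 1207 UMIs and 823 genes (WT) and 831.5 UMIs and 589 genes (dKO), against 1695 UMIs and 937 genes and 1720 UMIs and 961 genes in all other cells. Thinned to 1000 UMIs per cell, the order of the gene numbers turned: a low-ribosomal cell had a median 720 genes (WT, 215 cells, 108 shallower cells left out) against 641 (8412 cells, 1821 left out), and 694 genes (dKO, 126 cells, 286 left out) against 656 (14265 cells, 2785 left out). That order follows in part from the rule, which leaves more of a low-ribosomal cell's UMIs to other genes. Thinned to 1000 UMIs outside the ribosomal protein genes, a comparison chosen after seeing the data, the medians were 711 genes (WT, 211 cells, 112 left out) against 703 (6762 cells, 3471 left out) and 682 genes (dKO, 125 cells, 287 left out) against 703 (11694 cells, 5356 left out), with overlapping quartile ranges. The gap had opposite directions in the 2 libraries. Among cells with 1000 to 3000 UMIs the share of long genes was 32.5% (WT, 194 cells) against 11.3% (6245 cells) and 34.3% (dKO, 117 cells) against 10.3% (10545 cells), so the difference was as large within that range of depth. Of the 735 cells, 3 were predicted to be doublets, against 3481 of the 27283 other cells.

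The share of long genes was lower in the classes of high ribosomal share than in those of low, also beyond the threshold, but did not fall at every step. It went from a median 39.8% (WT) and 38.5% (dKO) at a ribosomal share under 1% to 18.9% and 16.8% at 5 to 6%, was 19.2% and 14.9% at 6 to 8%, and reached 9.12% and 10.1% at 25% or more. Between, it rose from 25.9% at 3 to 4% to 27.9% at 4 to 5% (WT, 16 cells) and from 24.1% at 2 to 3% through 25% to 27.7% at 4 to 5% (dKO, 11 cells). *Malat1* went from 20053 and 19364 CPM in the lowest class to 5669 and 6700 CPM in the highest, but not evenly, with 19642 CPM in the 14 cells at 5 to 6% (WT) and 21661 CPM in the 15 cells at 3 to 4% (dKO). The mitochondrial share of non-ribosomal UMIs was 1.27% and 1.34% in the lowest class, at most 2.19% and 2.38% at 3 to 4%, and 1.58% and 1.79% in the highest.

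**Figure D2:**
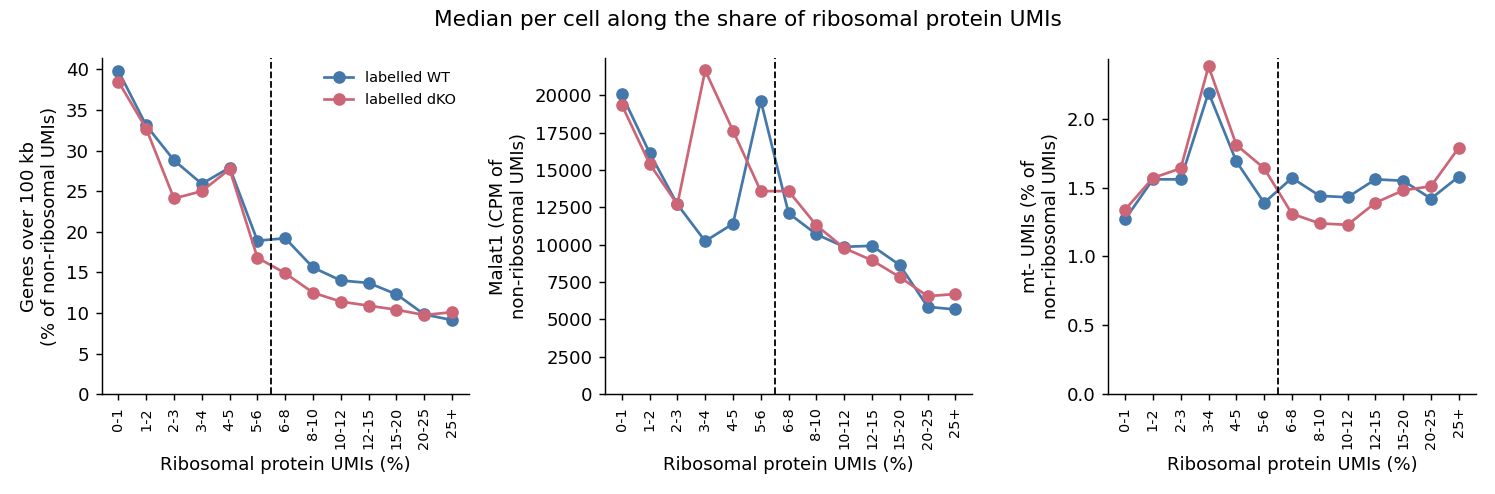
Median per cell of the share of non-ribosomal UMIs from genes over 100 kb (percent), of *Malat1* (CPM of non-ribosomal UMIs) and of the mitochondrial share (percent of non-ribosomal UMIs), by class of ribosomal share, in both libraries, with the threshold marked. The long-gene share falls from 39.8% (WT) and 38.5% (dKO) in the lowest class to 9.12% and 10.1% in the highest, while the mitochondrial medians stay between 1.23% and 2.38%.

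UMIs were then summed over the low-ribosomal cells and over all other cells of each library, and genes were described as higher or lower when they differed at least 2-fold in the same direction in both libraries. Of 8592 genes with enough UMIs in both libraries, 1438 (16.7%) were higher and 1617 (18.8%) were lower in low-ribosomal cells. The median log2 ratio over these genes was 0.09 (WT) and 0.05 (dKO). The split depends on the scaling, since 2110 genes were higher and 1187 lower when scaled to all UMIs, which moved the median by 0.32 and 0.28, and 708 were higher and 2213 lower with TMM factors, which moved it by -0.39 and -0.36. The counts below are to be read against 16.7% and 18.8% of all genes.

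Of the nuclear RNAs, *Malat1* (ENSMUSG00000092341, mm10 chromosome 19, 5795690 to 5802672, minus strand) was at 15371 CPM (WT, 7173 UMIs, 15018 to 15731) against 8414 CPM, and at 18209 CPM (dKO, 7594 UMIs, 17802 to 18623) against 8128 CPM. The log2 ratios were 0.87 (95% interval 0.84 to 0.90) and 1.16 (1.13 to 1.20), so the library labelled WT missed the 2-fold limit at this scaling. Scaled to all UMIs they were 1.19 and 1.45, past the limit in both libraries. With TMM factors they were 0.48 and 0.80, past it in neither. Of 10 nuclear RNAs tested, 5 were higher and 2 lower at the scaling used here. *Neat1*, the scaffold RNA of paraspeckles, was at 574 (WT) and 364 CPM (dKO) against 163 and 109 CPM, and *Kcnq1ot1*, an imprinted antisense RNA, was at 135 and 106 against 46.0 and 30.7 CPM. The host transcripts *Pvt1* (log2 2.32 and 2.21) and *Dleu2* (1.30 and 1.91) were higher as well. *Mir142hg*, host of a microRNA of blood cells with a short span, was lower (-1.61 and -1.37). *Gm26917* (1.68 and 1.61) and *AY036118* (-1.90 and -1.27) lie within 6 kb of each other on chromosome 17 beside *Gm42418* (-0.94 and -0.39), which overlaps *AY036118* on the other strand, and they went in opposite directions. *Meg3* had no UMI in low-ribosomal cells.

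The genes given as markers of these droplets, *Ikzf2* and *Bach2*, encode transcription factors of T cells. *Ikzf2* (Helios, chromosome 1, 69531214 to 69687245) was at 881 CPM (WT, 798 to 970) against 203 CPM and at 3371 CPM (dKO, 3197 to 3552) against 636 CPM, and *Bach2* (chromosome 4, 32238804 to 32586108) was at 709 (635 to 790) against 320 CPM and 393 (335 to 458) against 139 CPM. Both were more than 2-fold higher in low-ribosomal cells of each library at this scaling, but with TMM factors *Bach2* was at log2 0.76 (WT) and 1.14 (dKO), so it passed 2-fold in 1 library only, whereas *Ikzf2* was at 1.73 and 2.04. They were not alone in this among long T cell genes, of which 16 of 20 tested were higher and none lower, with median log2 ratios of 1.75 (WT) and 1.68 (dKO), and 12 of 20 were with TMM factors. *Dock2*, an activator of Rac in lymphocyte migration, was at 6146 (5923 to 6375) and 5529 CPM (5306 to 5760) against 1356 and 1218 CPM. *Inpp4b*, a phosphoinositide phosphatase, was at 2917 and 5222 against 795 and 832 CPM, *Arhgap15* at 3555 and 2868 against 1035 and 639 CPM, and *Runx1*, a transcription factor of blood cells, at 2625 and 1626 against 535 and 344 CPM. The exceptions were *Foxp1* (log2 0.69 and 0.94), *Prkcq* (1.03 and 0.62), *Satb1* (0.57 and 1.24) and *Ets1* (1.20 and 0.92), which were above 0 in both libraries without reaching 2-fold in both.

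Genes of translation and of the cytosol were lower. Of 19 transcripts of the translation machinery and of related growth-regulated messengers, other than ribosomal protein genes matched by the rule, 15 were lower and none higher, with median log2 ratios of -2.24 (WT) and -2.60 (dKO). The elongation factor *Eef1a1* was at 1597 (WT) and 1091 CPM (dKO) against 8267 and 6632 CPM. *Tpt1* was at 553 and 578 against 6517 and 6045 CPM, and *Fau*, whose product includes a ribosomal protein that the symbol pattern misses, was at 531 and 662 against 6899 and 6763 CPM. Cytosolic and cytoskeletal messengers were lower in 21 of 25, with medians of -2.05 and -1.90. The actin-binding peptide *Tmsb4x* was at 1419 and 2208 against 15890 and 12458 CPM, and *Actb* at 4082 and 2767 against 12892 and 9964 CPM.

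Nuclear genes for the respiratory chain were lower in 76 of 81 tested (medians -2.82 and -2.81). None of the 13 mitochondrially encoded genes was higher or lower (medians -0.02 and 0.06). The filter had capped the mitochondrial UMIs of the kept cells, so the mitochondrial medians were in part set by the selection. *mt-Co1*, a subunit of cytochrome c oxidase, was at 4294 (4109 to 4487) and 4014 CPM (3824 to 4211) against 4445 and 3860 CPM. *Cox6b1*, a nuclear-encoded subunit of the same enzyme, was at 30 (16.4 to 50.3) and 43.2 CPM (25.6 to 68.2) against 481 and 514 CPM. Mitochondrially encoded and nuclear transcripts of the same complexes thus stood differently to all other cells. The parts of compartment, gene span and the mitochondrial filter in this were not tested. The 5 nuclear genes that were not lower were *Ndufaf2*, *Ndufaf5*, *Ndufs1*, *Ndufs4* and *Uqcrc2*, chosen for naming after their values were seen. The sign of the mitochondrial median depends on the scaling, with 0.30 and 0.34 when scaled to all UMIs and -0.41 and -0.31 with TMM factors.

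Messengers of the endoplasmic reticulum and secretion were lower in 10 of 21 and higher in none (medians -0.89 and -1.14). The translocon subunit *Sec61b* was at 30 and 52.8 CPM against 536 and 734 CPM, whereas the chaperones *Hspa5* (log2 0.21 and -0.28) and *Canx* (0.43 and 0.14) were near 0. Of 16 transcripts of splicing and RNA-processing factors often kept in the nucleus, only *Nktr* was higher (1.09 and 1.07, but 0.70 and 0.71 with TMM factors) and none was lower, with medians of 0.11 and 0.27 that were -0.28 and -0.09 with TMM factors. The lists for translation, cytosol, respiratory chain, endoplasmic reticulum and long T cell genes kept the sign of their medians under all 3 other scalings. Of 17 immediate early genes tested, which respond within minutes to cell stimulation and handling, 3 were lower and none higher (medians -0.53 and -0.49), whereas none was lower and 2 were higher when scaled to all UMIs. *Junb* was at 1997 and 945 against 4162 and 2477 CPM, and *Fos* at 651 and 532 against 711 and 549 CPM.

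Of 12 T cell markers, 5 were lower and none higher, or 5 lower and 3 higher when scaled to all UMIs. *Cd3d*, which spans 5554 bp, was at 120 (WT) and 93.5 CPM (dKO) against 748 and 818 CPM, and *Cd3e* at 236 and 261 against 930 and 933 CPM. *Cd247*, the zeta chain of the same receptor complex, which spans 88597 bp, was at 684 and 540 against 375 and 255 CPM, and the costimulatory receptor *Cd28* at 1322 and 585 against 573 and 309 CPM. Subunits of 1 receptor complex thus moved apart. *Cd4* itself, the marker of the sort, was at 317 and 1079 CPM against 307 and 803 CPM.

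Genes with at least 50 CPM in either set of cells, in each library, were ranked by the smaller of their log2 ratios. The 10 leading genes at each end differed in span, as a description of genes chosen this way. Those higher in low-ribosomal cells were *Sema6d*, *Spred1*, *St6galnac3*, *Plcl1*, *Pkp4*, *Klf12*, *Chst11*, *Nfia*, *Cpeb4* and *Sipa1l2*, which span 60906 to 577802 bp. In the library labelled WT all of these but *St6galnac3* were under 50 CPM in all other cells. They could be ranked there only through the cells in which they were high. *St6galnac3*, a sialyltransferase gene of 526909 bp, had log2 ratios of 2.79 (2.68 to 2.90; 814 UMIs) and 2.97 (2.81 to 3.13; 372 UMIs). *Pkp4*, a junction plaque protein gene, had 2.66 and 3.49, and *Klf12*, a transcriptional repressor, 2.54 in both libraries. Those lower were *Bst2*, *Plac8*, *Sec61b*, *Atp5mpl*, *Eef1b2*, *Tomm7*, *Cox6b1*, *Atp5e*, *Nme2* and *Pfdn5*, which span 3034 to 18521 bp. All of these but *Eef1b2*, *Atp5e* and *Pfdn5* were under 50 CPM in low-ribosomal cells of the library labelled WT. *Bst2* (tetherin), also a marker of plasmacytoid dendritic cells, had -4.27 (-4.92 to -3.68) and -4.21 (-4.68 to -3.78), and *Eef1b2*, an elongation factor subunit, -3.70 and -3.66.

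Across genes with at least 10 UMIs in both sets of cells, the log2 ratio went with gene span. Spearman's rank correlation was 0.70 over 6439 genes (WT) and 0.67 over 6159 genes (dKO), as a description, since genes are not independent replicates and share the libraries. Whether intronic reads were counted is not given in the sources used here, and this relation and the share of long genes depend on it. It was 0.56 and 0.51 with summed exon length and 0.48 and 0.49 with the intronic share of the span. The ratio also went with the gene's level (-0.37 and -0.51), and when genes were split evenly into low, middle and high level, the rank correlation with span was 0.50, 0.72 and 0.79 (WT) and 0.44, 0.71 and 0.77 (dKO). Genes under 3 kb had a median log2 ratio of -1.30 (WT, 197 genes) and -1.61 (dKO, 188 genes), and those of 3 to 10 kb of -0.88 and -1.06. The median was -0.06 and -0.17 at 10 to 30 kb, 0.75 and 0.77 at 30 to 100 kb, and 1.34 and 1.46 at 100 to 300 kb. Over 300 kb it was 1.63 (167 genes) and 1.97 (189 genes), and 97.0% and 98.9% of these genes were above 0. Such genes gave 7.20% and 7.50% of the non-ribosomal UMIs of low-ribosomal cells and 2.53% and 1.99% of those of all other cells. The limit of 10 UMIs did not act evenly. Low-ribosomal cells held 466645 (WT) and 417044 (dKO) non-ribosomal UMIs against 18005374 and 30234672. A gene at a low level passed more readily when it was higher in them, which raises the medians and the shares above 0. The relation with level depends on this too. The rank correlation with span was 0.76 and 0.71 with at least 50 UMIs in both sets, and 0.48 and 0.47 with at least 1.

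**Figure D3:**
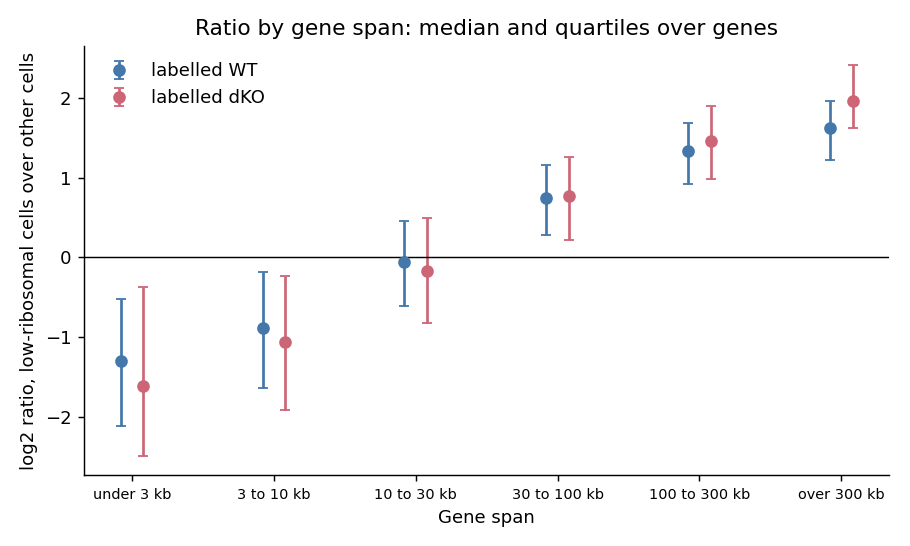
Log2 ratio of low-ribosomal cells over all other cells (vertical axis, CPM of non-ribosomal UMIs) by class of gene span (horizontal axis, kb), for both libraries. Points are medians and bars quartiles over genes with at least 10 UMIs in both sets of cells. The medians go from -1.30 (WT) and -1.61 (dKO) under 3 kb to 1.63 and 1.97 over 300 kb.

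Clustered on their own, the low-ribosomal cells fell into 6 groups, which were named by the listed markers and set against a cluster of other cells, a pairing made after the leading genes of both were seen. Group 1, T cell-like, had 245 cells (75.9% of the low-ribosomal cells) under the label WT and 67 (16.3%) under the label dKO. Group 2, Treg-like after regulatory T cells, had 22 (6.81%) and 241 (58.5%). Group 3, plasmacytoid dendritic-like, had 18 (5.57%) and 44 (10.7%), group 4, cycling, had 31 (9.60%) and 9 (2.18%), group 5, macrophage-like, had 6 (1.86%) and 31 (7.52%), and group 6, neutrophil-like, had 1 (0.31%) and 20 (4.85%). Groups 1 and 2 differed between the libraries in the same direction as their matched clusters of other cells, since the cluster matched to group 1 held 53.5% (WT) and 29.2% (dKO) of other cells and that matched to group 2 held 5.23% and 35.8%. The macrophage-like class went the other way, with 5.35% (WT) and 3.97% (dKO) of the other cells in the cluster matched to group 5.

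Low-ribosomal cells made up like shares of some classes and unlike shares of others. Of the Treg-like cells (group 2 and its matched cluster), 3.95% (2.49 to 5.92%) and 3.79% (3.34 to 4.29%) were low-ribosomal, and of the plasmacytoid dendritic-like cells 1.09% (0.650 to 1.72%) and 1.08% (0.782 to 1.44%). Of the T cell-like cells (group 1 and its matched cluster) 4.28% (3.77 to 4.84%; WT) and 1.33% (1.03 to 1.69%; dKO) were, and of the macrophage-like cells 1.08% (0.399 to 2.35%) and 4.38% (2.99 to 6.16%). Of the cycling cells 4.08% (2.79 to 5.74%) and 1.57% (0.718 to 2.95%) were, with overlapping intervals. The T cell-like class leaves out a cluster led by naive T markers, which held 1195 (WT) and 558 (dKO) cells. Differences between the libraries here were not tested. The sort was for CD4+ T cells, which plasmacytoid dendritic cells, macrophages and neutrophils are not, yet 5739 of the 28018 filtered cells lay in the plasmacytoid dendritic-like cluster and 1285 in the macrophage-like cluster. How they came through the sort was not tested. When all 28018 cells were clustered together, 482 of the low-ribosomal cells (65.6%) met in 1 cluster of 543 cells that held 237 cells of group 1 and 245 of group 2, while groups 3 to 5 lay wholly in the clusters of their class and the neutrophil-like group 6 lay wholly in the macrophage-like cluster.

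**Figure D4:**
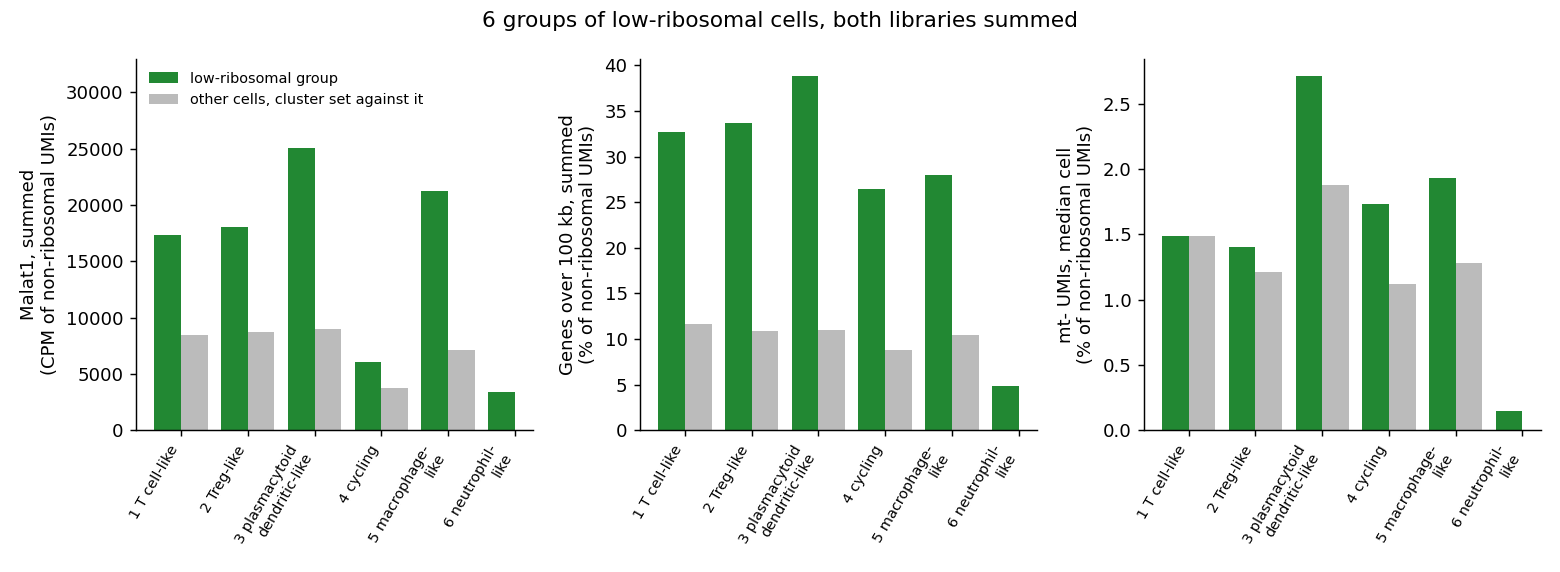
*Malat1* (CPM of non-ribosomal UMIs) and genes over 100 kb (percent of non-ribosomal UMIs), both summed over cells, and the mitochondrial share of the median cell (percent of non-ribosomal UMIs) for the 6 groups of low-ribosomal cells and, where there is one, their matched cluster of other cells. Groups 1 to 5 lie above their matched cluster for *Malat1* and long genes. For the mitochondrial share groups 2 to 5 do and group 1 equals its cluster at 1.49%, and the neutrophil-like group 6 lies lowest in all 3.

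Group 1 was led by *Pard3*, *Bcl2*, *Gm2682*, *Fgf13*, *Nebl*, *Sidt1*, *Txk*, *Cd40lg*, *Gm36723* and *Lef1*, among them *Cd40lg*, the helper T cell ligand that licenses antigen-presenting cells, and *Bcl2*, a survival factor. Of the 10, *Lef1* is on the list of naive T cell markers, and 5 of the 12 T cell markers were at least 2-fold above the other groups. The cluster set against it shared *Cd40lg* and *Nebl* among its 10 leading genes and was also led by the effector genes *Ifng*, *Fasl*, *Xcl1* and *Il17a*. Against this cluster, *Malat1* was at 16767 (WT) and 20639 CPM (dKO) against 9121 and 7654 CPM, and genes over 100 kb gave 32.7% of non-ribosomal UMIs against 11.7% with both libraries summed. Of 3390 genes tested in both libraries, 27.1% were higher and 20.7% lower. *Ikzf2* was at 602 and 1656 against 157 and 456 CPM, and *Bach2* at 844 and 1637 against 292 and 253 CPM. *Cd3d* was lower in both libraries (log2 -3.10 and -2.69) and so was *Ccl5*, a short chemokine gene of effector T cells (-2.61 and -4.49), whereas *Cd247* was at 0.75 and 1.42. Of 12 T cell markers, 5 were lower and none higher, and the 4 that span under 10 kb were all below 0 in the library labelled WT. There the rank correlation between span and log2 ratio over the 12 markers was 0.76.

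Group 2 was led by *Itgb8*, the integrin subunit with which Tregs activate TGF-beta, together with *Nckap5*, *Frmd5*, *Neb*, *Tnfrsf9*, *Myo1d*, *Il10* and *Lrrc32*. The leading genes of every group were ranked with both libraries summed. All 39 *Il10* UMIs of group 2 came from the library labelled dKO. In the library labelled dKO, which held most of the group, 28.8% of 6882 genes were higher and 26.2% lower than in the matched Treg-like cluster. *Ikzf2* was at 6108 CPM against 1571 CPM (log2 1.96; 1.87 to 2.04), and in the library labelled WT at 6075 against 1663 CPM (1.87; 1.63 to 2.10). *Foxp3*, the transcription factor that defines Tregs, was at 280 CPM (55 UMIs) against 569 CPM in the library labelled dKO (-1.02; -1.43 to -0.64) and at 327 CPM (9 UMIs) against 528 CPM in the library labelled WT (-0.69; -1.83 to 0.25). Helios and *Foxp3*, both of Tregs, thus differed in opposite directions in the same cells.

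Of 21 genes on the Treg list tested in the library labelled dKO, 2 were higher and 11 lower. Those that span more than 100 kb were *Ikzf2* and *Nrp1*, a semaphorin receptor (1.24; 0.55 to 1.86), and both were above 0. The 5 that span under 10 kb were all below 0, among them the costimulatory receptors *Tnfrsf4* (OX40, 2770 bp, -2.50; -2.79 to -2.23) and *Tnfrsf18* (GITR, 2732 bp, -2.43; -2.82 to -2.07). *Ctla4*, the inhibitory receptor of CD28 ligands, was at 3181 against 3123 CPM (0.03; -0.09 to 0.14). *Il2ra*, the high-affinity chain of the interleukin 2 receptor, was at 0.73, the integrin *Itgae* at 0.78, *Tnfrsf9* at -1.49 and *Capg* at -2.51. The rank correlation between span and log2 ratio over the 21 genes was 0.59.

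Group 3 was led by *Grm8*, *Cacna1e*, *Tcf4*, *Mef2c* and other genes with *Siglech* among them. *Tcf4*, the transcription factor that sets the identity of plasmacytoid dendritic cells and spans 345724 bp, was at 8463 (WT) and 7666 CPM (dKO) against 1742 and 1660 CPM in the matched cluster. *Runx2*, a partner of it, was at 2473 and 1682 against 795 and 655 CPM. The surface lectin *Siglech* was at 1358 and 997 against 2955 and 2355 CPM, and *Bst2* at 209 (6 UMIs) and 391 CPM (20 UMIs) against 4384 and 4751 CPM. Of 1750 genes tested, 34.8% were higher and 27.7% lower, and of the 11 markers of the class 2 were higher and 7 lower. The 3 markers over 100 kb were above 0 and the 5 under 10 kb below 0 in the library labelled dKO, and the rank correlation over the 11 was 0.91. *Malat1* was at 22290 and 26654 against 8838 and 9098 CPM.

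**Figure D5:**
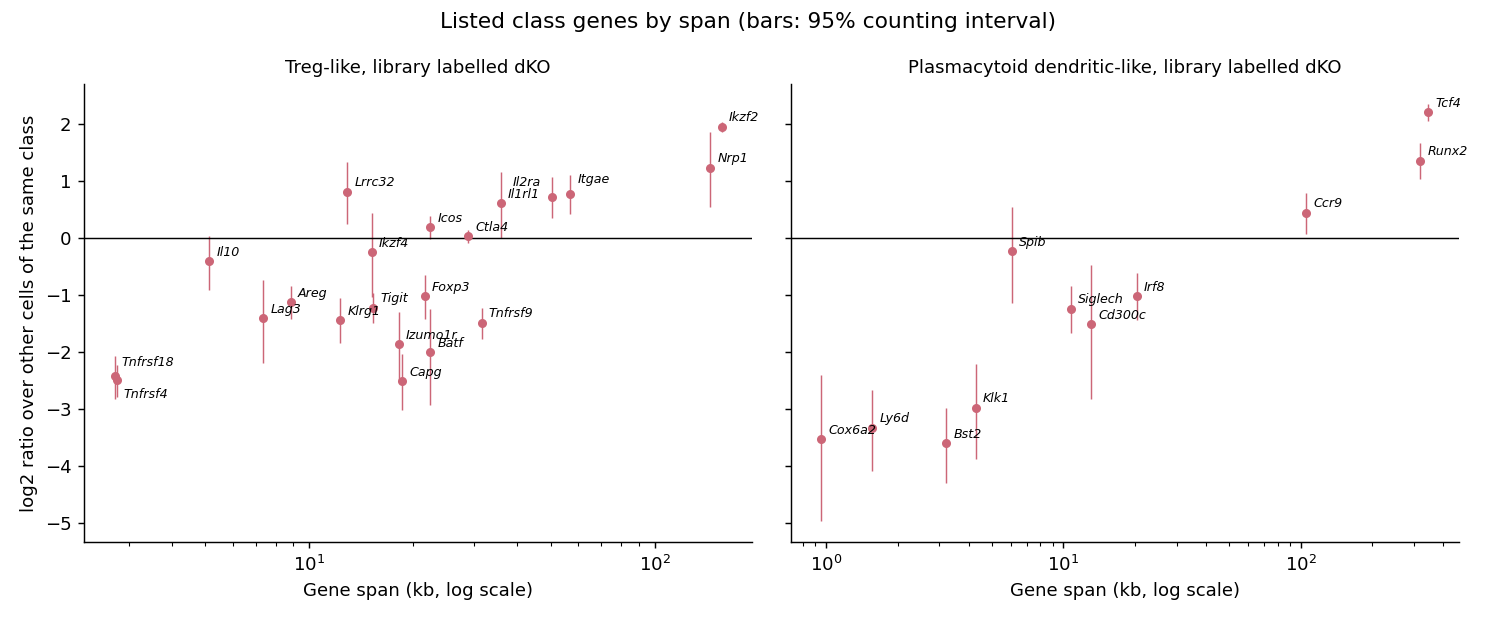
Log2 ratio of a group of low-ribosomal cells over its matched cluster (vertical axis) by gene span (horizontal axis, kb, log scale), with 1 point per listed Treg gene in group 2 (left) and plasmacytoid dendritic gene in group 3 (right), library labelled dKO, and bars for the 95% interval of counting error. Short genes such as *Tnfrsf4* and *Bst2* lie below 0, and long ones such as *Ikzf2* and *Tcf4* above it.

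Group 4 was led by *Mki67*, *Ccna2*, *Stmn1*, *Top2a* and *Pclaf*, genes of DNA replication and mitosis. In the library labelled WT, with 31 of the 40 cells, *Malat1* was at 5881 CPM against 4076 CPM in the matched cycling cluster (log2 0.53; 0.39 to 0.66), beside 0.88 in group 1 of the same library. With both libraries summed, genes over 100 kb gave 26.4% of non-ribosomal UMIs in the group against 8.84%. *Mki67*, which coats mitotic chromosomes, was in the library labelled WT at 4051 against 1034 CPM (1.97; 1.80 to 2.14) and the topoisomerase *Top2a* at 1666 against 840 CPM, whereas *Ube2c*, a ubiquitin-conjugating enzyme of mitotic exit, was at 278 against 901 CPM (-1.70). Of 10 cycling markers, 1 was higher and 2 lower, beside 35.9% and 19.8% of 4580 genes. The rank correlation between span and log2 ratio over the 10 markers was 0.41. Of 13 mitochondrially encoded genes, 3 were higher.

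Group 5 was led by *Pid1*, *Dapk1*, *Apoe*, *Aoah*, *Sash1*, *Gab1*, *Cd36*, *Snx24*, *Mmp12* and *Creb5*. Against the matched cluster of the library labelled dKO, *Malat1* was at 20943 against 7238 CPM, the macrophage receptor *Adgre1* (F4/80) at 416 against 108 CPM and the apolipoprotein *Apoe*, which spans 3080 bp, at 10040 against 5189 CPM (0.95; 0.83 to 1.07). Of 9 macrophage markers 2 were higher and none lower, beside 36.4% and 24% of 3555 genes, and 5 of the 7 that span under 10 kb were above 0. The other short markers were *C1qb* (-0.12, -0.44 to 0.19) and the lysosomal glycoprotein *Cd68* (-0.87, -1.61 to -0.22). Over the 9 markers the rank correlation between span and log2 ratio was 0.40, and the median span was 3363 bp above 0 and 4000 bp below it.

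Group 6 stood apart from the other groups. It was led by *S100a9*, *S100a8*, *Ngp*, *Camp* and *Lcn2*, granule and calprotectin genes of neutrophils, and *S100a9* and *S100a8* alone took 158317 and 130221 CPM. Its *Malat1* was at 3439 CPM, its genes over 100 kb gave 4.84% of non-ribosomal UMIs and its mitochondrial share had a median of 0.148% of all UMIs, each the lowest of the 6 groups. Neutrophils are known to hold little ribosomal protein mRNA. Of the 36 filtered cells of the library labelled dKO with at least 10 UMIs of 8 neutrophil markers, 17 were low-ribosomal, all in group 6. In the library labelled WT none of 4 such cells was. These cells were unlike in content. The markers gave a median 41.1% of the UMIs of the 17, but 2.19% in the other 19 (dKO) and 1.13% in the 4 (WT). Without group 6, the *Malat1* log2 ratio of the library labelled dKO was 1.27 and the rank correlation with gene span 0.70.

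Within the groups, the relation with gene span was close to that of all low-ribosomal cells. The rank correlation over each group and its matched cluster was 0.73 (WT, 5087 genes) and 0.72 (dKO) in group 1, 0.70 and 0.73 in group 2, 0.66 and 0.74 in group 3, 0.70 in group 4 (WT) and 0.65 in group 5 (dKO). In group 6 it was 0.08 over 340 genes, although its matched cluster held macrophage-like cells, so that value compares different classes.

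Markers of hepatocytes, stellate cells, mast cells or basophils and erythroid cells were near 0 in low-ribosomal cells, and those of endothelial cells were not. The 7 hepatocyte markers summed to 6.43 (WT) and 7.19 CPM (dKO) against 5.11 and 5.36 CPM, with *Ttr*, *Fgb* and *Mup20* at 0 in both libraries. The 5 stellate cell markers summed to 2.14 and 4.8 CPM, the 4 mast cell or basophil markers to 2.14 and 0 CPM, and the 5 erythroid markers to 0 and 2.40 CPM, with all 4 haemoglobin genes at 0. The 8 B cell markers summed to 94.3 and 64.7 CPM against 312 and 287 CPM, with *Ms4a1* at 0, and the 6 endothelial markers to 311 and 137 CPM against 155 and 158 CPM, higher than in all other cells in the library labelled WT only. *Pecam1*, which leukocytes also express, gave 261 of the 311 CPM, and the endothelial genes *Kdr* and *Cdh5* were at 4.29 CPM each. The part of endothelial RNA in the results was not tested. CD8 markers summed to 10.7 and 7.19 CPM against 68.2 and 158 CPM, with *Cd8a* at 0 in both libraries. Among T cell states, the 8 naive T markers summed to 1575 and 703 CPM against 3023 and 2070 CPM and the 9 markers of Th1 or cytotoxic T cells to 1622 and 933 against 3562 and 6659 CPM. The 11 plasmacytoid dendritic markers summed to 1552 and 2695 against 4177 and 7812 CPM, and the 9 macrophage markers to 294 against 1215 CPM (WT) and 4935 against 1448 CPM (dKO). Of the 37 macrophage-like cells, 31 came from the library labelled dKO.

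T cell receptor chains were found in a smaller share of low-ribosomal cells than of all other cells. In the library labelled WT, 24 of 323 (7.43%; 4.82 to 10.9%) had a productive TRB chain against 33.5% (32.6 to 34.5%) of all other cells, and in the library labelled dKO 8 of 412 (1.94%; 0.842 to 3.79%) did against 24.0% (23.3 to 24.6%). A chain was found in 7.01% and 5.90% of the other cells in the plasmacytoid dendritic-like cluster, a class that should lack one, at a median depth over both libraries of 2902 UMIs, so the low-ribosomal share lay near that background (WT) or below it (dKO). In groups 1, 2 and 4 the 12 T cell markers summed to 5368, 4669 and 5096 CPM, although group 4 was named by cycling markers. Of these 3 groups, 8.05% (WT) and 2.21% (dKO) of cells had a TRB chain. The share was 39.9% and 30.5% of the other cells outside the plasmacytoid dendritic-like and macrophage-like clusters. Of the cycling group 8 of 31 cells had one (25.8%; 11.9 to 44.6%) in the library labelled WT, of group 1 16 of 245 (6.53%; 3.78 to 10.4%), and of group 2 5 of 241 (2.07%; 0.677 to 4.77%) in the library labelled dKO. Where a chain was found it rested on a median of 3 UMIs against 6. Restricted to cells with a TRB chain, the *Malat1* log2 ratio was 0.03 in the library labelled WT, where 8 of the 24 cells were cycling, and 1.02 in the library labelled dKO with 8 cells.

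Both chains were found in 15 (WT) and 5 (dKO) low-ribosomal cells, and a clone was taken as the cells of a library with identical TRA and TRB CDR3 nucleotide sequences. The sequences of the 4 clones with the most other cells are shown because they are found in both low-ribosomal and other cells and were not used by the rule. They are the CDR3 coding sequences in the deposited receptor annotations, read 5′ to 3′ from rearranged genes, so they have no position in the reference genome.
WT clone TRA (TRAV7D-5, TRAJ39): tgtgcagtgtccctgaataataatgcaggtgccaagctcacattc
WT clone TRB (TRBV13-1, TRBJ2-2): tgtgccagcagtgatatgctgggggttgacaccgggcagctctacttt
WT smaller clone TRA (TRAV14-2, TRAJ42): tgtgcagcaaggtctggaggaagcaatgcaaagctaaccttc
WT smaller clone TRB (TRBV13-1, TRBJ2-5): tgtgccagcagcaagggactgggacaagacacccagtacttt
dKO clone TRA (TRAV6-1, TRAJ30): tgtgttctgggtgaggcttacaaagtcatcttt
dKO clone TRB (TRBV13-1, TRBJ2-4): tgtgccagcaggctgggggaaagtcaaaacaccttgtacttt
dKO smaller clone TRA (TRAV13D-2, TRAJ9): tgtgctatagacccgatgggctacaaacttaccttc
dKO smaller clone TRB (TRBV1, TRBJ1-6): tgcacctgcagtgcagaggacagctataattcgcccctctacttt

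The WT clone held 3 low-ribosomal cells, all of the cycling group, and 67 other cells, of which 33 were in the cluster matched to group 1 and 33 in the cycling cluster. The dKO clone held 2 low-ribosomal cells, 1 in group 1 and 1 in the Treg-like group 2, and 279 other cells, which were 11.6% of the other cells with both chains. Of these 279, 222 were in the Treg-like cluster matched to group 2, 25 in the plasmacytoid dendritic-like cluster, 15 in the cycling cluster, 8 in the cluster matched to group 1, 8 in the macrophage-like cluster and 1 in the cluster that held most low-ribosomal cells. The smaller WT clone held 1 low-ribosomal cell of group 1 and 36 other cells, 29 of them in the cluster matched to group 1. The smaller dKO clone held 1 low-ribosomal cell of group 2 and 15 other cells, 13 of them in the Treg-like cluster. In another WT clone, 1 low-ribosomal cell of the cycling group shared its receptor with 10 other cells, of which 7 were in the cluster matched to group 1 and 2 in the cycling cluster. In the library labelled dKO, 1 cell of the macrophage-like group 5 carried a receptor, on 2 TRB UMIs, that was shared with 4 other cells, all of them Treg-like. Of all other cells with both chains, 60.2% (WT) were in the cluster matched to group 1 and 14.2% in the cycling cluster, and 41.4% (dKO) were in the Treg-like cluster. Since chains also occurred in plasmacytoid dendritic-like and macrophage-like cells, whether the chains of low-ribosomal cells were their own was not tested.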

How the data were processed

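Hepatic CD4+ T cells of 2 pooled mice per genotype gave 1 single-cell RNA and 1 receptor library each. The authors processed the reads with Cell Ranger (7.0.1 in the file headers; genome mm10 in the submitters' processing notes) and deposited counts of UMIs per gene and cell, and receptor contigs with UMI counts. Whether intronic reads were counted is not given in the sources used here. Depth was 23494155 UMIs in 10602 cells (WT) and 37966611 in 17645 (dKO).

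Cells were filtered, and low-ribosomal cells chosen, as stated above. The members and gene lists were chosen with earlier results of these data known. UMIs were summed per library over members and over all other cells. CPM were computed from the deposited counts over genes outside the ribosomal pattern, with exact Poisson intervals. Ratios have exact conditional binomial intervals, and shares have Clopper-Pearson intervals, all at 95%. A gene entered a comparison with at least 20 UMIs in both sets together and at least 5 observed or expected UMIs in the members. Gene spans came from the GENCODE M21 annotation of GRCm38, which matched 32235 of 32285 genes. Cells were clustered with Seurat 5.3.0 in R 4.3.3 and a group was named by its markers. Doublets were predicted with the Scrublet score in scanpy 1.11.5, whose automatic threshold marked none, so the highest 0.8% per 1000 cells and cells with at least 2 TRB chains were taken; none were removed. Some listed genes are not reported here. Genes named were those of the lists, the 10 leading genes at each end, and *Nr4a1* and *Nr4a2*. Leading genes had at least 50 CPM in either set of cells and 10 UMIs in both, in each library. The leading genes of groups, of clusters and of a finer clustering were named in addition, after their values were seen. Alternatives were other scalings (all UMIs, TMM from edgeR 4.0.16, size factors of DESeq2 1.42.0), thresholds, filters, depth, doublets, length measures and clone definitions. The procedures were tested on simulated data.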

Additional observations from a re-analysis of the deposited data

Results flagged for a closer look

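In 5 macrophage genes the log2 ratio of low-ribosomal cells over all other cells lay below 0 for the WT label and above 0 for the dKO label. It was -1.34 and 2.12 for *Apoe*, -1.21 and 1.76 for *C1qa*, -2.22 and 1.10 for *C1qb*, -1.0 and 1.57 for *C1qc*, and -3.51 and 2.03 for *Lyz2*. With 1 library per genotype the difference was not tested. The macrophage-like group of low-ribosomal cells held 6 (WT) and 31 (dKO) cells.

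A further set of low-ribosomal droplets lay outside the analysed cells. Of the droplets left out for 5% or more mitochondrial UMIs, 24 of 46 (52.2%, exact 95% interval 36.9 to 67.1%) under the WT label and 101 of 183 (55.2%; 47.7 to 62.5%) of those under the dKO label had a ribosomal share under 6%. Their medians were 25373 and 32323 CPM of *Malat1*, 25.1% and 28.7% of non-ribosomal UMIs from genes over 100 kb, and 7.18% and 8.08% mitochondrial UMIs.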

How the results depend on the processing

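There were 78 alternatives to 12 results. A reversed direction could be recorded only for the *Malat1* ratio and the rank correlation with gene length, and none was. In cells with a TRB chain (WT), the *Malat1* interval of -0.11 to 0.16 included 0. For gene counts, a change in which side was larger was not recorded, and 1438 higher and 1617 lower became 2110 and 1187 over all UMIs. Of the 64 alternatives to results other than the gene length relation, 26 moved the value. The other 38 left it within its counting interval or its count within 1.5 times. The rank correlation with gene length has no counting interval, and 2 of its 14 alternatives gave the same 2 decimals. The share of low-ribosomal cells was 3.54% (WT) and 2.75% (dKO) at a threshold of 8%. In the library labelled dKO it was also 2.73% with under 10% mitochondrial UMIs, 2.91% with no mitochondrial filter, 1.68% with over 500 genes and 2.74% without predicted doublets. The *Malat1* log2 ratio was 1.19 and 1.45 over all UMIs, 0.48 and 0.80 with TMM factors, 0.75 and 1.04 with DESeq2 size factors, 0.80 and 1.06 at 8%, and 0.03 and 1.02 in cells with a TRB chain. It was 1.0 (WT) as the mean of the cells' own CPM and 1.08 (dKO) at 1000 to 3000 UMIs. The rank correlation with gene length was 0.56 and 0.51 with exon length, 0.76 and 0.71 with at least 50 UMIs, 0.48 and 0.47 with at least 1 UMI, 0.59 and 0.74 in cells with a TRB chain, 0.69 and 0.66 at 8%, and 0.68 (dKO) at 4%. Leaving out the neutrophil-like group, an alternative chosen after seeing the data, gave 1.27 for *Malat1* and 0.70 for the rank correlation (dKO). Genes higher in both libraries numbered 708 with TMM factors, and 151 were higher and 114 lower in cells with a TRB chain, where 556 genes were tested. Low-ribosomal cells with both chains were 4.64% (WT), and those with a TRB chain 3.95% (dKO) at 8%. Clone mates numbered 267 and 517 by TRB alone, against 113 and 298.

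No paired analysis was possible because each genotype has 1 library. Genotype, library and pool of mice cannot be told apart, and no interval covers the variation between mice. The members were chosen by RNA content, so their differences in RNA content are a description. Ribosomal share, depth, *Malat1* and gene span moved together, and their separate parts were not tested. The calls in groups 2 to 6 rest on few cells in 1 of the libraries. Clusters were named by listed markers, and the matched clusters hold cells of more than 1 state.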

Other observations

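A finer clustering of the low-ribosomal cells (resolution 0.6) parted 90 cells from the others, 68 (WT) and 22 (dKO), of which 88 were in the T cell-like group 1. They were led by heat shock genes, which are induced by unfolded protein and by warming of tissue. *Hspa1a* and *Hspa1b*, the inducible Hsp70 genes, were at 1209 and 1487 CPM against 73.1 and 100 CPM in the other low-ribosomal cells. The co-chaperones *Dnajb1* and *Dnaja4* were at 1851 and 259 CPM against 132 and 34.6 CPM, *Hsph1* at 2379 against 259 CPM and *Bag3*, a co-chaperone of Hsp70, at 576 against 88.5 CPM. These genes chose the cluster, so their levels are a description. The genes differed in how the whole of group 1 stood to other cells. *Hspa1a* was at 408 (WT) and 263 CPM (dKO) in the whole of group 1 against 540 and 327 CPM in the other cells of its matched cluster, and at 311 and 91.1 CPM in all low-ribosomal cells against 414 and 196 CPM in all other cells. *Hspa1b* was at 514 (439 to 599) and 433 CPM (274 to 649) in group 1 against 584 and 453 CPM in that cluster. *Dnajb1* was at 655 (570 to 751) and 470 CPM (304 to 694) against 771 and 534 CPM. Counting error thus covered the difference of *Hspa1b* in both libraries and of *Dnajb1* in the library labelled dKO. It also covered that of *Hspa1a* under the label dKO, where group 1 had 14 UMIs (144 to 442 CPM). *Hsph1* went the other way, at 815 and 1392 CPM in group 1 against 487 and 233 CPM in that cluster. It was at 649 and 352 CPM in all low-ribosomal cells against 370 and 161 CPM in all other cells.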
